A study of Mus musculus with 37 samples.

Results

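The genes described here, Lct, Dsp, Il16, C1ql3, Tdo2, Pdzd2, Bhlhe22, Prdm8, Neurod1 and Neurod2, are used as identity genes of dentate granule cells. They were taken by symbol, and all 10 were found among the 16489 mouse genes with a value, each as 1 feature once deposited rows with identical values had been counted once. The arrays measured laser-captured dentate gyrus (DG, the granule cell region of the hippocampus) and nucleus accumbens (NAcc, a part of the ventral striatum) of adult male C57BL/6J mice. Mice with forebrain overexpression of the glucocorticoid receptor (GRov) during early life gave 6 DG and 6 NAcc arrays, mice with lifetime GRov gave 6 and 7, and No-GRov controls gave 6 and 6, and 18 animals gave both regions. These groups are called early, lifetime and control below, and an array carries the number of its animal. The promoter of the transgene, the way its period was set, litters and ages in days are not given in the sources used here. Each array held RNA of 1 animal's captured serial sections, 12 µm thick, after 2 rounds of amplification, so values come from small amounts of RNA of mixed tissue, in which fewer cells of a type and less RNA per cell cannot be told apart.

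Granule cells are the principal excitatory neurons of the DG: they receive input from entorhinal cortex, send mossy fibres to hilus and CA3, and are among the few neurons still added in adult rodents. Basic helix-loop-helix (bHLH) factors, which bind E-boxes in DNA as dimers, are among the factors that take part in setting their fate. NeuroD1 and NeuroD2 activate genes of neuronal differentiation, and NeuroD1 is needed for the granule layer to form in mice, whereas Bhlhe22 represses transcription and recruits the PR domain protein Prdm8 to do so. The glucocorticoid receptor, the product of Nr3c1, is a transcription factor switched on by corticosterone, and the DG is one of the brain regions where it is abundant. The other genes are known as markers rather than as regulators: Tdo2 encodes tryptophan 2,3-dioxygenase, the first enzyme of the kynurenine pathway, Lct encodes lactase, and Dsp encodes desmoplakin, which ties desmosomes to intermediate filaments. C1ql3 encodes a secreted C1q-like protein of synapses, Il16 the precursor of interleukin 16, whose neuronal form is a PDZ scaffold, and Pdzd2 a protein with several PDZ domains.

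Promoter windows of 250 bases before an annotated start (RefSeq, GRCm38.p6) were at hand for 9 of the 10 genes, as 11 windows, since Il16 had 3. The 4 below belong to the genes with the largest rises in lifetime DG and show how unlike they are in E-boxes, the element that bHLH factors bind. Each is printed on the gene's strand with every E-box (CANNTG, its own reverse complement) in capitals.
Prdm8: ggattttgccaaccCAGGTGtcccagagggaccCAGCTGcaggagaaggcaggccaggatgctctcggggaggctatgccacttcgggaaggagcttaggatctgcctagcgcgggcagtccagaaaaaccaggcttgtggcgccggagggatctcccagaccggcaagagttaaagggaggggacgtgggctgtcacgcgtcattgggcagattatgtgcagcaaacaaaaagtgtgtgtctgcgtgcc
Tdo2: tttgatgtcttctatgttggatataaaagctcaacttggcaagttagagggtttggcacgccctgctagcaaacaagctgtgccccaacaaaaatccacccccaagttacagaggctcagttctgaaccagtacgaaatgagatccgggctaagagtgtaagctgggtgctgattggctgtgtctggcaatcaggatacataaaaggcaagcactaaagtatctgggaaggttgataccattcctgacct
Il16: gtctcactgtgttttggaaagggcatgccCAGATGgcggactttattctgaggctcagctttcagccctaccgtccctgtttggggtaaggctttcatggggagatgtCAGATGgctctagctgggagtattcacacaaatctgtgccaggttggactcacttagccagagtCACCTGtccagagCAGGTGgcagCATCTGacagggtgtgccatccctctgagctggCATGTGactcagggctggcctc
Neurod2: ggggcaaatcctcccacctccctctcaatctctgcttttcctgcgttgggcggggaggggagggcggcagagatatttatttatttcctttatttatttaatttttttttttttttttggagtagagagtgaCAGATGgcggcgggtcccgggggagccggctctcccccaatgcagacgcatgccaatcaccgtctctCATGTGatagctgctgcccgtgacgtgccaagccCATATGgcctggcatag

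These windows lie at chr5:98180619-98180868 (+ strand) for Prdm8, chr3:81975729-81975978 (- strand) for Tdo2, chr7:83735540-83735789 (- strand) for Il16, where it is the first of 3, and chr11:98329646-98329895 (- strand) for Neurod2. The windows of Prdm8 and Il16 lie within the annotated spans of their genes, chr5:98167203-98187454 and chr7:83642819-83746028. The starts used for these genes are thus not their outermost ones. The Il16 window held 6 E-boxes, that of Neurod2 held 3, that of Prdm8 held 2 and that of Tdo2 held 0. An E-box was found in a window of 6 of the 9 genes, and in 66.2% of all 32851 promoter windows of the same length. The E-box that NeuroD proteins prefer, CAGATG or its reverse complement CATCTG, occurred in Il16 and Neurod2, against 14.4% of all windows, and the CATATG form in Neurod1 and Neurod2, against 3.46%; both are special cases of CANNTG. The hexamer to which the glucocorticoid receptor binds, AGAACA or TGTTCT, occurred in 0 of the 9 genes and in 16.1% of all windows. A match describes letters in these windows alone, and no factor's binding was measured.

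Before the genes are described, 3 facts of the arrays bear on them. Nr3c1 averaged 8.26 ± 0.16 in early, 8.36 ± 0.20 in lifetime and 8.11 ± 0.13 log2 units in control DG (SD, n = 6 each), and the groups overlapped. The interquartile range of all features in an array was wider in early (2.85 ± 0.09) and lifetime (2.87 ± 0.10) than in control DG (2.71 ± 0.04), a property of the whole array that moves with the groups. Array 5 of early NAcc stood apart from the rest, with a median of 6.50 and an interquartile range of 1.72, against medians of up to 6.27 in the other NAcc arrays.

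Against NAcc of the same animals, 9 of the 10 genes were higher in DG, and each of the 9 was higher in 18 of 18 animals. Pdzd2 was lower in DG in 18 of 18 animals on arrays centred on their medians, but higher on the deposited scale without centring (+0.22, adjusted p = 0.00376 in limma), so its direction depends on the scale. Arrays of the regions were set on one scale by centring each on its median, since deposited values lay 0.71 log2 units higher in DG for the median feature. All 10 differences passed limma's test at an adjusted p of 0.05, but 73.5% of the 11301 features did so too (35.2% higher and 38.3% lower in DG).

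On the deposited scale NAcc values of Lct (4.50 to 4.86), Dsp (4.29 to 4.86), Tdo2 (4.34 to 4.86) and Il16 (4.78 to 5.38) lay in all 19 arrays under 5.77, the level below which features of NAcc were not tested. Neurod1 and Prdm8 averaged below it too, so 6 of the 10 genes had values in NAcc too low to be tested there. They passed the filter over both regions through their DG values, so their direction is given, the printed gaps have no exact size, and the order among them was not measured. Of these 6, Lct gave a gap of 6.57 (SE 0.07), Dsp 6.34 (SE 0.08), Prdm8 5.02 (SE 0.16), Neurod1 4.62 (SE 0.08), Tdo2 3.42 (SE 0.15) and Il16 2.03 log2 units (SE 0.09).

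The other 4 genes had averages high enough to be tested in both regions. Bhlhe22, the bHLH repressor gene, was higher in DG by 5.97 log2 units (SE 0.24), C1ql3 by 2.17 (SE 0.08, a fold of 4.51) and Neurod2 by 1.70 (SE 0.07, a fold of 3.25). Pdzd2 differed by -0.51 (SE 0.07, adjusted p = 5.6e-07 in limma). Within single animals the gap of Bhlhe22 varied most, between 3.79 and 7.67, while that of Neurod2 lay between 1.03 and 2.12. In NAcc arrays 5, 8, 10, 17 and 19 Bhlhe22 itself lay under 5.77. The gaps of those animals, with the widest of 7.67 in animal 5, have no exact size, and they enter the 5.97. These 4 genes passed the test within each group too, against 61.9%, 57.4% and 55.9% of features in early, lifetime and control animals. The 6 genes low in NAcc were called as well, but they entered this test through their DG values, so their calls add no support.

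**Figure D1:**
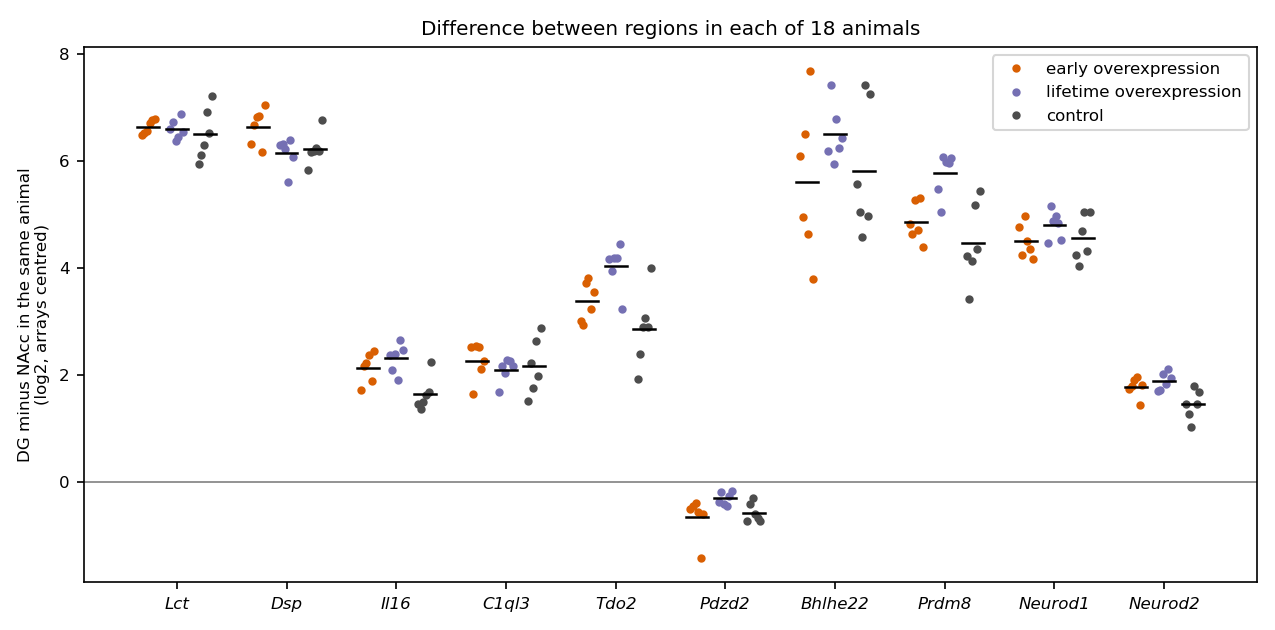
Difference of DG minus NAcc (log2, arrays centred on their medians) in each of 18 animals, coloured by group, with the group mean as a bar. The other 9 genes lie above 0 in every animal and Pdzd2 lies below 0 in every animal.

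**Figure D2:**
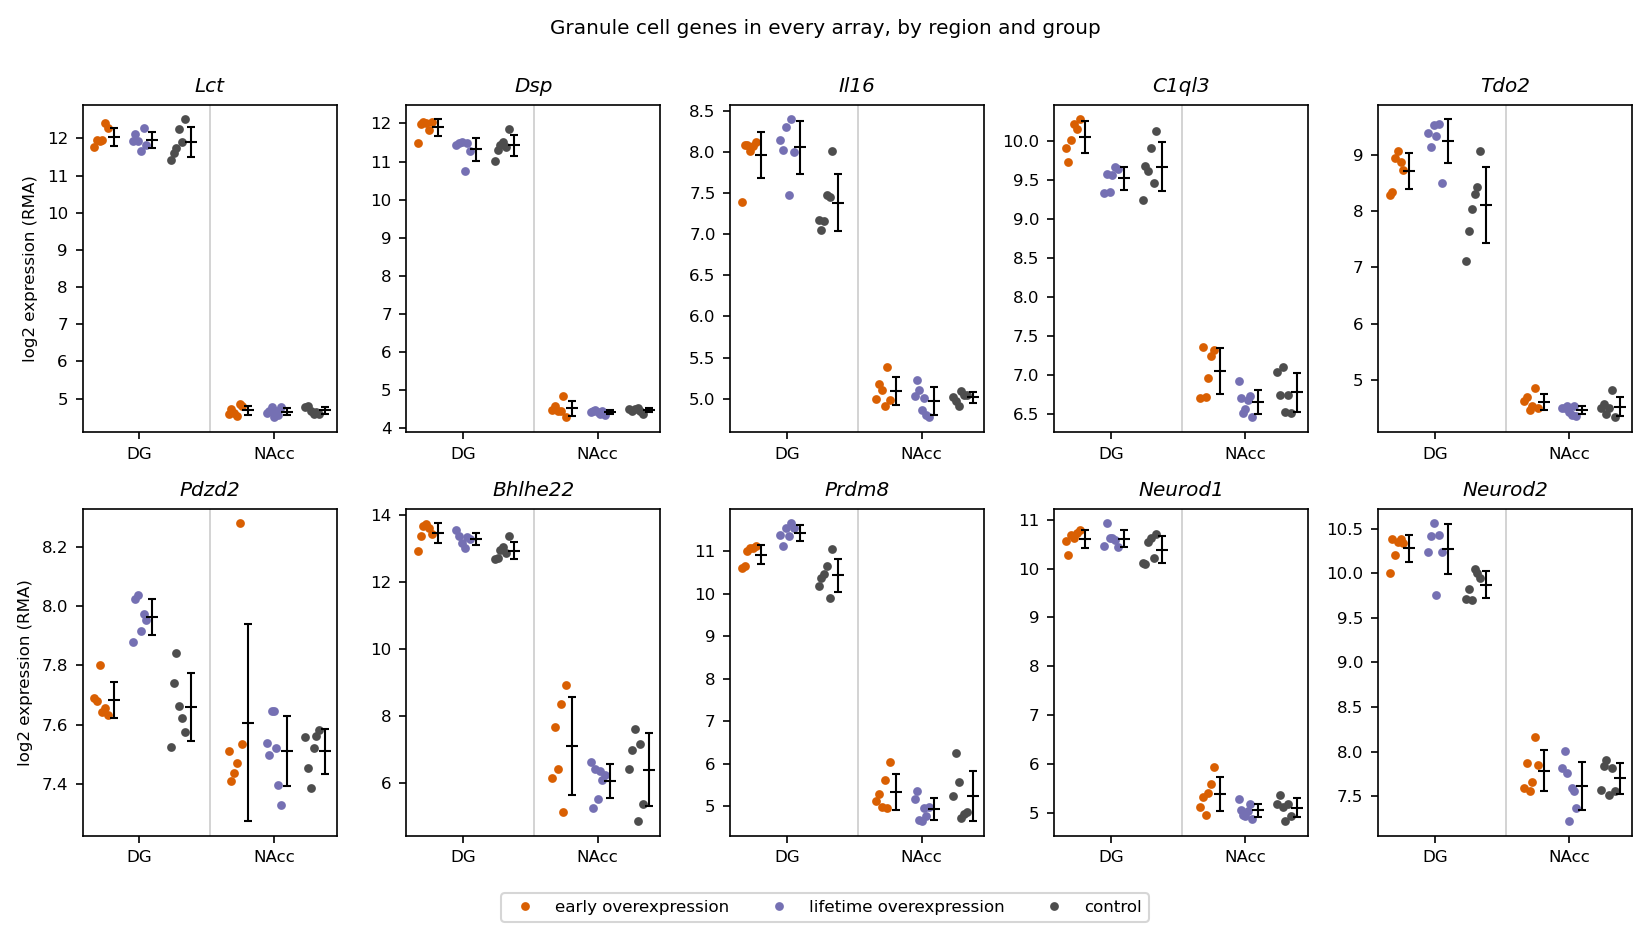
log2 expression (RMA) of each gene in every DG and NAcc array, in early, lifetime and control animals; bars give the mean ± SD. Each panel has its own axis. The regions are far apart for 9 genes, and the 3 groups of a region lie close together.

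In DG, 5 of the 10 genes were called higher in early than in control animals and 0 lower. Of all features, 11.4% were called in either direction and 6.17% higher. The 5 were Il16, Bhlhe22, Prdm8, Dsp and Neurod2, and their rises lay between 0.41 and 0.58 log2 units. In lifetime DG 5 were also called higher than in control and 0 lower: Tdo2, Prdm8, Il16, Neurod2 and Pdzd2. The shares of all features were 15.3% in either direction and 8.88% higher. Prdm8, Il16 and Neurod2 were thus called in both comparisons, which share the control arrays. All 10 genes had a difference above 0 in early and 8 of 10 in lifetime DG, with medians of +0.44 and +0.33, where the median of all features was -0.01 and 0.00. The 10 genes were chosen with earlier results of these data known. Most of them also go up and down together between arrays, so these counts are not made of separate observations.

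**Figure D3:**
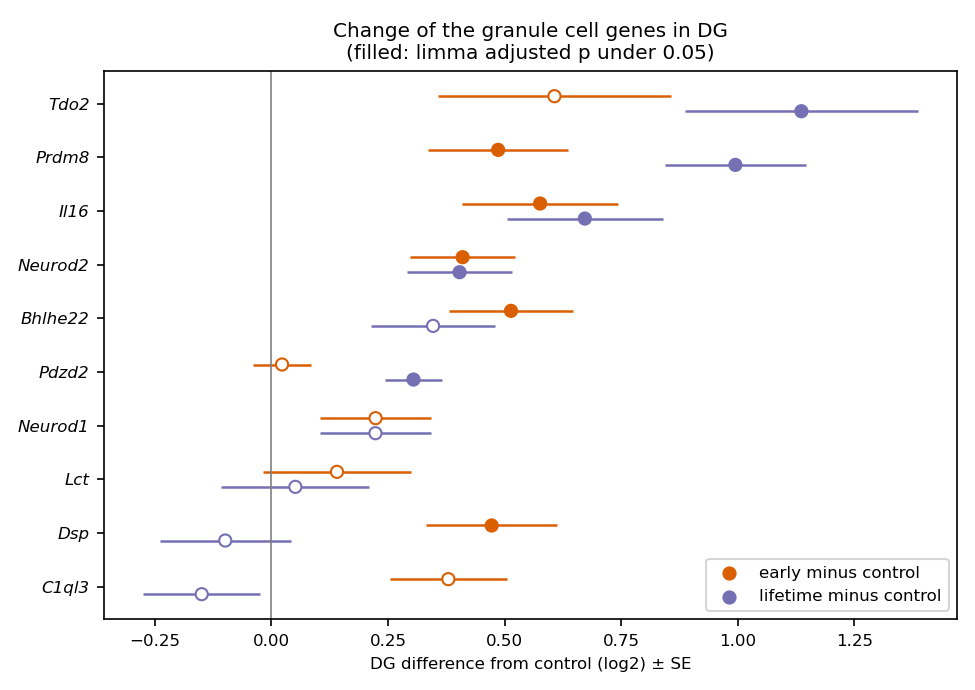
Difference from control DG (log2, ± SE of limma) of each gene in early and lifetime DG, filled where the adjusted p was under 0.05. Tdo2 and Prdm8 moved most in lifetime DG, and Dsp and C1ql3 lie on opposite sides of 0 in the 2 comparisons.

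Among the transcription factor genes, Prdm8 ran between 10.61 and 11.12 in early DG with a median of 11.04, between 11.12 and 11.65 in lifetime DG with a median of 11.45, and between 9.91 and 11.04 in control DG with a median of 10.42. All lifetime arrays lay above all control arrays, and the early median lay between those of the other groups, with early and control ranges that overlapped. The difference from control was +0.49 in early (SE 0.15, adjusted p = 0.0434, higher in 6 of 6 arrays) and +0.99 in lifetime DG (SE 0.15, adjusted p = 0.00048, 6 of 6). Bhlhe22, whose product brings Prdm8 to DNA, ran between 12.92 and 13.73 in early DG (median 13.51), between 13.01 and 13.54 in lifetime DG (median 13.30) and between 12.68 and 13.36 in control DG (median 12.92). Early array 1 was the lowest of its group and control array 19 the highest, and the ranges of all 3 groups overlapped. Its difference passed in early DG (+0.51, SE 0.13, adjusted p = 0.0245, 5 of 6 arrays) and did not in lifetime DG (+0.35, SE 0.13, adjusted p = 0.0784).

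Neurod2 had medians of 10.35 in early (10.01 to 10.39), 10.33 in lifetime (9.76 to 10.56) and 9.89 in control DG (9.70 to 10.05). It rose by a like amount in both, with +0.41 (SE 0.11, adjusted p = 0.0291, 6 of 6 arrays) in early and +0.40 (SE 0.11, adjusted p = 0.0234, 5 of 6) in lifetime DG. Lifetime array 10 was the exception and lay at 9.76, inside the control range. Neurod1, the factor that acts earlier in the lineage, had medians of 10.65 in early (10.28 to 10.80), 10.60 in lifetime (10.44 to 10.93) and 10.39 in control DG (10.10 to 10.71). Its differences of +0.22 (SE 0.12, adjusted p = 0.201) in early and +0.22 (SE 0.12, adjusted p = 0.193) in lifetime DG did not pass, and the 3 groups overlapped widely.

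Of the enzyme genes, Tdo2 had the widest spread: it ran between 8.29 and 9.07 in early DG (median 8.81), between 8.50 and 9.54 in lifetime DG (median 9.36) and between 7.11 and 9.06 in control DG (median 8.18). Control array 19 reached into the lifetime range and control array 14 lay lowest of all 18 arrays, while 5 of the 6 lifetime arrays lay above every control array. The lifetime difference was +1.14 (SE 0.25, adjusted p = 0.00738, 6 of 6 arrays), and the early difference of +0.61 (SE 0.25, adjusted p = 0.108) did not pass. Lct did not pass in early (+0.14, SE 0.16, adjusted p = 0.563) or lifetime DG (+0.05, SE 0.16, adjusted p = 0.847). Its medians were 11.95 in early (11.76 to 12.41), 11.93 in lifetime (11.66 to 12.27) and 11.82 in control DG (11.41 to 12.51), so the control arrays spanned both other groups.

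Dsp and C1ql3 were called lower in lifetime than in early DG, but these calls held in 3 and 8 of 18 fits that left out 1 array. Dsp ran between 11.49 and 12.03 in early DG (median 12.00), between 10.75 and 11.50 in lifetime DG (median 11.46) and between 11.02 and 11.85 in control DG (median 11.41). It rose in early DG (+0.47, SE 0.14, adjusted p = 0.0375, 6 of 6 arrays) and differed by -0.10 (SE 0.14, adjusted p = 0.648) in lifetime DG. C1ql3 ran between 9.73 and 10.27 in early DG (median 10.08), between 9.33 and 9.66 in lifetime DG (median 9.57) and between 9.24 and 10.12 in control DG (median 9.64). Neither of its differences from control passed, with +0.38 (SE 0.13, adjusted p = 0.0558) in early and -0.15 (SE 0.13, adjusted p = 0.419) in lifetime DG.

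The PDZ genes both rose in lifetime DG. Il16 had medians of 8.07 in early (7.40 to 8.12), 8.08 in lifetime (7.48 to 8.39) and 7.31 in control DG (7.05 to 8.01), with control array 19 far above the other control arrays and early array 1 and lifetime array 10 inside the control range. It rose by +0.58 (SE 0.17, adjusted p = 0.0350, 6 of 6 arrays) in early and +0.67 (SE 0.17, adjusted p = 0.0135, 6 of 6) in lifetime DG. Pdzd2 had medians of 7.67 in early (7.63 to 7.80), 7.96 in lifetime (7.88 to 8.04) and 7.64 in control DG (7.52 to 7.84). Every lifetime array of Pdzd2 lay above every array of the other groups, a small rise of +0.30 over control (SE 0.06, adjusted p = 0.00479, 6 of 6 arrays), whereas the early difference was +0.02 (SE 0.06, adjusted p = 0.822). Of the 10 genes, Prdm8 and Pdzd2 had lifetime and control ranges that did not overlap (4.77% of all features), and 0 had early and control ranges that did not (3.42%).

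When each array's interquartile range entered the model as a covariate, 0 of the 10 genes were called in early and 0 in lifetime DG, where 1 and 74 of all features were called. Prdm8 then differed by +0.74 (adjusted p = 0.0800) and Tdo2 by +0.54 (adjusted p = 0.476) in lifetime DG, and what part the array spread has in these rises was not tested further. The 5 early calls were lost without early array 3, 4 or 5 or control array 14 (0 calls each), and fell to 1 without control array 15, to 2 without early array 6 or control array 17 or 18, and to 3 without control array 16. With the animal as a block over both regions 3 remained called, and Prdm8 (adjusted p = 0.158) and Bhlhe22 (0.499) did not; Prdm8 was also lost in early DG with further quantile normalization (0.0602) and with only the 2 groups in the fit (0.071). The lifetime calls of Prdm8, Tdo2, Il16 and Pdzd2 held in 18 of 18 fits that left out 1 array, and that of Neurod2 in 14, being lost without lifetime array 8 (adjusted p = 0.0501), 9 (0.0674) or 11 (0.0577) or control array 14 (0.0528). Further quantile normalization also lost it (adjusted p = 0.053).

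**Figure D4:**
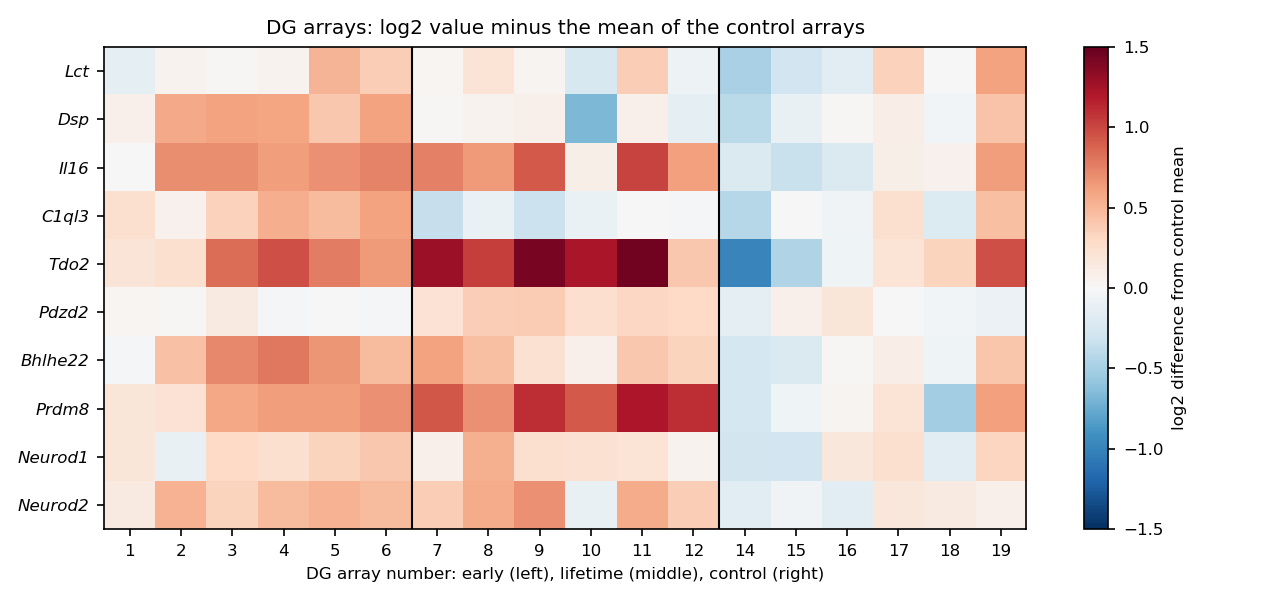
Each DG array's log2 value minus the mean of the control arrays, by gene (rows) and array number (columns; early left, lifetime middle, control right). Prdm8, Pdzd2, Tdo2, Il16, Bhlhe22 and Neurod1 are above the control mean in all lifetime arrays, and control array 19 is above it for all genes but Pdzd2.

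Set directly against each other, lifetime and early DG differed in 3 of the 10 genes, against 1.37% of all features. Pdzd2 was higher in lifetime DG (+0.28, SE 0.06, adjusted p = 0.0222, 6 of 6 arrays), and Dsp (-0.57, SE 0.14, adjusted p = 0.0472, 6 of 6) and C1ql3 (-0.53, SE 0.13, adjusted p = 0.0387, 6 of 6) were lower. The lifetime and early ranges did not overlap for Pdzd2 and C1ql3, which was true of 1.73% of features, while those of Dsp met at 11.50 in lifetime array 9 and 11.49 in early array 1. Prdm8 (+0.51, SE 0.15, adjusted p = 0.128) and Tdo2 (+0.53, SE 0.25, adjusted p = 0.507) had differences of similar size that did not pass, so their larger rise in lifetime DG was not shown to differ from that in early DG. Neurod1 and Neurod2 differed by 0.00 (SE 0.12) and -0.01 (SE 0.11). The 3 calls were made with the interquartile range as a covariate too, but they are close to the threshold: 0 were made without early array 4, 5 or 6 or lifetime array 8, 9 or 11, and 1 without early array 3, lifetime array 7 or 12 or control array 16. Without the filter on low values 1 was called, with Dsp (adjusted p = 0.064) and C1ql3 (0.0512) lost, and with the animal as a block Pdzd2 was lost (0.193). On arrays centred on their medians Dsp was lost too (adjusted p = 0.05 in limma).

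Within groups, most of these genes went up and down together from array to array. After group means were taken out, 40 of the 45 gene pairs had a Pearson r above 0 over the 18 DG arrays, with a median of 0.55 and a range of -0.14 to 0.89, and the highest value was that of Dsp and Il16. The median r of single members with all other tested features lay between 0.00 (Pdzd2) and 0.11 (Lct). Pdzd2 stood aside, and its r with Il16, Lct, Bhlhe22 and Prdm8 was -0.14, -0.12, -0.05 and -0.01. Control array 19 was the highest of its group for 8 of the 10 genes and control array 14 the lowest for 6, and early array 1 was the lowest of its group for 7. In lifetime DG, array 11 was the highest for 5 and array 10 the lowest for 5. These correlations are descriptions over arrays that share dissection, amplification and normalization.

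Most marker lists of other cells moved against the granule genes in the same arrays. The level of a list, the mean log2 value over its measured genes, had a median r with the 10 genes of -0.69 for endothelial and pericyte markers, -0.59 for medium spiny neurons, -0.58 for astrocytes, -0.53 for interneurons, -0.53 for microglia and -0.38 for pyramidal and mossy cells, with 10 of 10 genes below 0 for medium spiny neurons and 9 of 10 for each of the others. For oligodendrocytes it was 0.00. Medium spiny neurons are cells of the striatum and not of the DG, yet their list had an r like those of DG cell types. Of its 9 measured genes, 7 passed the filter in DG. By group, the list of 11 microglia markers averaged 7.11 in early (6.94 to 7.38), 7.11 in lifetime (6.90 to 7.29) and 7.31 log2 units in control DG (7.19 to 7.38). The list of 12 pyramidal and mossy cell markers averaged 7.64 in early (7.53 to 7.76), 7.71 in lifetime (7.63 to 7.86) and 7.81 in control DG (7.64 to 7.99). Endothelial and pericyte markers averaged 7.05 in early, 7.04 in lifetime and 7.19 in control DG, and the ranges of all these lists overlapped between groups. Neurod6, a pyramidal cell relative of the NeuroD genes picked here after its values were seen, averaged 8.28 ± 0.87 in early, 8.41 ± 1.06 in lifetime and 9.07 ± 0.93 in control DG, and its r with the members ran between -0.79 (Dsp) and 0.09 (Pdzd2). Neither lower mean was called by limma. Neurod6 was listed with the forebrain transcription factors of the granule lineage, of which 11 of 15 lay above 0 in early and 12 of 15 in lifetime DG, so it went against most of its list. How far the mix of captured cells has a part in the rises was not tested.

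In NAcc, 4 of the 10 genes had values high enough to be tested, Pdzd2, Neurod2, Bhlhe22 and C1ql3, and 0 of them were called by limma with GRov in early or lifetime animals relative to control or between the GRov groups. The background was 0%, 0% and 0.00885% of features, and at an unadjusted p of 0.05 the counts were 0, 0 and 1 (4.92%, 3.67% and 5.29% of features). The 1 was C1ql3, which had medians of 6.69 in lifetime (6.46 to 6.92) and 7.11 in early NAcc (6.70 to 7.36), a difference of -0.40 (SE 0.13, adjusted p = 0.572), with overlapping ranges and in the same direction as in DG. Neurod2 lay between 7.22 and 8.17 and Pdzd2 between 7.33 and 8.28 over the 19 arrays, where early array 5 gave the top value of both.

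Of the 4 genes tested in NAcc, Bhlhe22 varied most. It ran between 5.13 and 8.93 in early NAcc (median 7.05), between 5.25 and 6.64 in lifetime NAcc (median 6.25) and between 4.88 and 7.62 in control NAcc (median 6.70). Early arrays 6, 4 and 2 and control array 16 were the highest, and the groups overlapped. Its differences from control were +0.70 (SE 0.57, adjusted p = 0.784) in early and -0.33 (SE 0.55, adjusted p = 0.99999) in lifetime NAcc. Over the 19 arrays with group means removed, Bhlhe22 had r = 0.61 with Prdm8, 0.61 with Neurod6, 0.52 with Neurod1, 0.46 with C1ql3, 0.19 with Tbr1 and 0.12 with Neurod2, and it had r = -0.55 with Dsp, -0.52 with Pdzd2 and -0.51 with Il16. Without the 2 arrays farthest from the median of Bhlhe22 these became 0.52, 0.56, 0.69, 0.62, 0.52, 0.37, -0.23, -0.22 and -0.29. For Drd1 and Penk, markers of the medium spiny neurons that fill the NAcc, r was 0.22 and 0.46 over all arrays and -0.31 and 0.14 without those 2. Prdm8, Neurod1, Neurod6, Tbr1, Dsp and Il16 averaged under 5.77 in each NAcc group, so their r rests on values near the low end. The interquartile range of the NAcc arrays had r = 0.53 with Bhlhe22, 0.21 with Prdm8, -0.20 with Neurod1 and -0.31 with C1ql3. With Neurod2, Il16, Pdzd2 and Dsp its r was -0.68, -0.76, -0.83 and -0.88. The part of this array spread was not tested. Tissue next to the captured area was not measured, and its part in these values was not tested.

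**Figure D5:**
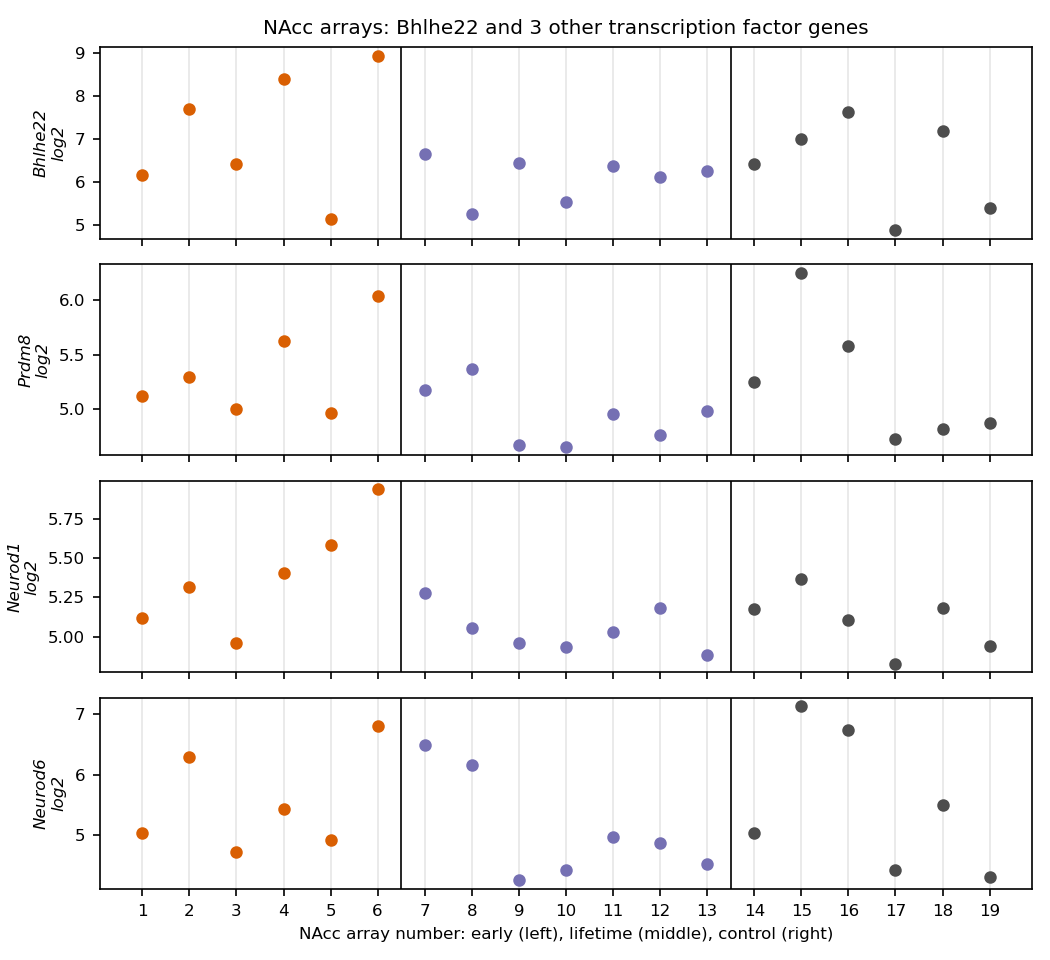
log2 expression of Bhlhe22, Prdm8, Neurod1 and Neurod6 in each of the 19 NAcc arrays (early left, lifetime middle, control right), by array number. Early array 6 is the highest of its group for all 4 genes. Bhlhe22 spans the widest range, and Prdm8, Neurod1 and Neurod6 averaged too low in NAcc to be tested there.

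Whether a change with GRov differed between the regions was tested on DG minus NAcc within each animal. In lifetime relative to control animals 1 of the 10 genes was called, against 0.611% of features: the gap of Prdm8 was 5.76 ± 0.42 in lifetime and 4.46 ± 0.74 log2 units in control animals (SD, n = 6 each), a difference of +1.31 (SE 0.29, adjusted p = 0.0396). Lifetime animals ran between 5.04 and 6.07 and control animals between 3.41 and 5.44, so the groups overlapped. Prdm8 lay in NAcc at 4.94 ± 0.26 in lifetime (n = 7) and 5.25 ± 0.59 in control arrays (n = 6), values too low to be tested there, so the test draws on DG together with a NAcc level near the low end of the scale, and it does not show how far Prdm8 changed in NAcc. Tdo2 (+1.17, SE 0.28, adjusted p = 0.0658), Il16 (+0.67, SE 0.17, adjusted p = 0.0750) and Neurod2 (+0.44, SE 0.13, adjusted p = 0.172) pointed the same way and did not pass. Like Prdm8, Tdo2 and Il16 lay too low in NAcc to be tested there. Their changes in DG alone were +1.14 and +0.67, so these 2 values draw on DG and do not show that the regions differ. In early relative to control animals 0 were called by limma (0% of features), with 3 members at an unadjusted p of 0.05 (19.2%), and 0 in lifetime relative to early animals (0.345%), with 4 members at an unadjusted p of 0.05 (8.49%). The Prdm8 call was lost without the filter on low values (adjusted p = 0.0728) and with quantile normalization over all arrays (0.177) and with a 60th percentile filter (0.0547), whereas 4 genes were called without early array 5 and lifetime array 8 of NAcc or without animal 5. It was also lost without animal 2, 3, 4, 7, 9, 11, 12, 14, 15, 16 or 18, at an adjusted p of up to 0.110, with a difference of 1.10 to 1.36.

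The genes that work with these members showed mixed changes in DG. Of all features, 11.4% were called in early DG (6.17% higher) and 15.3% in lifetime DG (8.88% higher). A count of 1 of 6 or 2 of 15 lies near the shares called in either direction. Of 6 tested bHLH partners and Bhlhe22-Prdm8 target genes, 1 rose in early and 1 in lifetime DG, Tcf4 in each (+0.44, adjusted p = 0.0180, and +0.48, adjusted p = 0.00703), which encodes an E protein that pairs with NeuroD factors. Of 15 other forebrain transcription factor genes of the lineage, 3 rose in early DG (Bcl11b +0.47, Nfib +0.41 and Sox11 +0.41) and 6 in lifetime DG, led by Tbr1 (+2.21), a factor of young glutamatergic neurons, Emx2 (+0.95) and Sox11 (+0.49), and 0 fell in either. Of 6 immature granule neuron markers, 3 rose in lifetime DG, the cytoskeletal genes Tubb3 (+0.77) and Marcks (+0.46) and the adhesion gene Ncam1 (+0.33), and limma called 0 in early DG (2 at an unadjusted p of 0.05), where Ncam1 came nearest with +0.28 (adjusted p = 0.0872). Of 15 other granule cell markers, 2 rose in early DG, the semaphorin gene Sema5a (+0.67) and Ahcyl2 (+0.41), and in lifetime DG 3 rose, led by Sema5a (+0.69) and Plk5 (+0.44), and 1, the netrin G gene Ntng1 (-0.71), fell. The medians of these 15 were +0.22 in early and -0.04 in lifetime DG, beside +0.44 and +0.33 for the 10 genes.

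The other desmosome genes gave a mixed picture beside Dsp. Of all features, 11.4% were called in early DG, 15.3% in lifetime DG and 1.37% between lifetime and early DG. A count of 1 of 7 lies near the early share. Of 7 tested, 1 rose in early DG, the plakophilin gene Pkp4 (+0.33), and 2 fell in lifetime DG, the desmosomal cadherin gene Dsg2 (-0.53, adjusted p = 6.6e-05) and Pkp2 (-0.53, adjusted p = 0.00939). Dsg2 (-0.41) and Pkp2 (-0.65) were also lower in lifetime than in early DG, as Dsp was. Of the genes that follow Tdo2 in the kynurenine pathway, 1 was high enough to be tested, Qprt, with -0.11 in early and -0.13 in lifetime DG, and limma did not call it (unadjusted p = 0.226 and 0.167). Of 5 C1q-like genes and receptors, limma called 0 in early and 0 in lifetime DG (0 and 1 at an unadjusted p of 0.05): Nrxn3, a presynaptic partner of this protein family, came nearest in early DG at -0.28 (adjusted p = 0.189) and the kainate receptor gene Grik2 in lifetime DG at -0.20 (adjusted p = 0.109).

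Some single markers of other cells passed the test in DG, where 11.4% of all features were called in early and 15.3% in lifetime DG. Most markers of several lists lay below 0, where the median of all features was -0.01 and 0.00. A difference above 0 was found in early and lifetime DG in 1 and 1 of 8 microglia markers, 1 and 2 of 10 oligodendrocyte markers, 1 and 1 of 7 endothelial and pericyte markers, and 3 and 3 of 9 astrocyte markers. The medians were -0.21 and -0.27 for microglia, -0.09 and -0.28 for oligodendrocytes, -0.17 and -0.19 for endothelial cells and pericytes and -0.14 and -0.11 for astrocytes, and 5 and 4 microglia markers had an unadjusted p under 0.05. Of 8 microglia markers, the adaptor gene Tyrobp fell in early (-0.70, adjusted p = 0.0114) and lifetime DG (-0.56, adjusted p = 0.0161), and Tmem119 (-0.28, adjusted p = 0.0497) fell in lifetime DG. Of 9 pyramidal and mossy cell markers, limma called 0 in early DG (6 at an unadjusted p of 0.05, with a list median of -0.28), where Grik4 came nearest (-0.28, adjusted p = 0.0561), and in lifetime DG 2 rose, Nptx1 (+0.42) and Bok (+0.41), and 2 fell, the kainate receptor gene Grik4 (-0.58) and Iyd (-0.38). Of 11 interneuron markers, Htr3a (-0.32) fell in early and Gad1 (+0.33) rose in lifetime DG. Of 10 oligodendrocyte markers, Sox10 (-0.34) fell in lifetime DG. Of 7 medium spiny neuron, 9 astrocyte and 7 endothelial and pericyte markers, limma called 0 in both comparisons, and at an unadjusted p of 0.05 the counts were 1, 1 and 1 in early and 0, 1 and 4 in lifetime DG. Of the astrocyte markers S100b came nearest in both (-0.56, adjusted p = 0.0540, in early and -0.40, adjusted p = 0.131, in lifetime DG), and of the endothelial and pericyte markers Flt1 in early (-0.20, adjusted p = 0.157) and Rgs5 in lifetime DG (-0.41, adjusted p = 0.0697).

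Between regions a gene low in 1 region has no exact size of difference, and 35.2% of all features were called higher and 38.3% lower in DG. Of 15 other granule cell markers, 10 were higher in DG than in NAcc, led by Sema5a (+3.32) and Trpc6 (+3.26), and 1 was lower. All 9 tested medium spiny neuron markers were lower in DG, led by Penk (-4.53) and Drd1 (-4.47). Among the partners of the members, the 2 widest differences of DG minus NAcc were Tbr1 (+3.16) and Nfib (+2.78) for the transcription factors, Tcf4 (+1.67) and Id4 (-1.45) for the bHLH partners, and Gap43 (-3.24) and Marcks (-0.64) for the immature neuron markers. They were Perp (-2.04) and Pkp1 (-1.29) for the desmosome genes, of which 4 of 6 were lower and 2 higher in DG. They were Ido1 (-3.62), the gene of an enzyme with the same reaction as Tdo2, and Qprt (-0.17, adjusted p = 0.0829, not called by limma) for the only 2 kynurenine genes tested, and Nrxn3 (-1.35) and Cbln4 (-1.21) for the C1q-like genes and receptors. For the other cell types they were Wfs1 (-3.11) and Nptx1 (+2.17) for pyramidal and mossy cells, Slc32a1 (-3.18) and Gad2 (-2.91) for interneurons, Gfap (+1.25) and Gja1 (-0.90) for astrocytes, Mal (-1.10) and Sox10 (-1.004) for oligodendrocytes, C1qb (-1.68) and Tmem119 (-1.11) for microglia, and Pdgfrb (-1.09) and Slco1a4 (-1.08) for endothelial cells and pericytes.

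The genes whose DG pattern was most like that of each member, by Pearson r over the 18 arrays after group means were removed and among all tested features, were not other members in the first 2 places; Il16 stood in place 4 for Dsp (0.89). For the bHLH set these were Cnot6 (0.91) and Epha7 (0.90) for Bhlhe22, Stk38 (0.91) and Hectd2 (0.89) for Prdm8, Phf20l1 (0.88) and Prkd1 (0.88) for Neurod1, and Glg1 (0.93) and Vash1 (0.93) for Neurod2. Noct (0.93) and Plppr4 (0.90) came first for Tdo2, and Ppp1r13b (0.91) and Clvs2 (0.91) for Lct. Limch1 (0.89) and Myt1 (0.89) came first for Dsp, Golm1 (0.92) and Plekha2 (0.91) for Il16, and Srek1 (0.92) and Pcdh19 (0.88) for C1ql3. Pdzd2 had the weakest likeness, with Krt75 (0.82) and Sec23b (0.77). The best of 11300 correlations over 18 arrays is high by selection, and the arrays share their preparation.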

How the data were processed

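Laser-captured DG and NAcc RNA was measured on 37 arrays. The authors deposited log2 values, for which the submitters' processing notes name RMA without a version; 1 value stands for 1 RefSeq transcript accession. Of 24142 accessions, 5307 repeated another's values, leaving 18835 features, of which 17260 carried 1 symbol of the RefSeq table for GRCm38.p6, 29 several and 1546 none. The members and gene lists were chosen with earlier results of these data known. Each region was fitted with limma 3.58.1 in R 4.3.3 over its 3 groups, leaving out features whose mean lay under the 40th percentile (a level of 6.34 in DG, 5.77 in NAcc and 6.07 over both), so 11301 were tested. Tests were two-sided, with Benjamini-Hochberg adjustment over all of them and a threshold of 0.05: called, rose and fell refer to it. Early and lifetime comparisons share the control arrays. DG and NAcc were compared with the animal as a block on arrays centred on their medians. Arrays of both regions with 1 number in their titles were taken to come from 1 animal, since the series design says that areas came from each animal; deviations of same-animal arrays correlated with a median r of 0.12 (-0.22 to 0.46). All members are named; from each list, up to 3 genes with the largest call per DG comparison, or else the smallest p, and the 2 largest differences between regions. One gene that this rule selects is not reported here. A gene with several features is given by the one with the highest mean. Alternatives were filters, normalizations, variance models, array weights, 1 feature per gene, a threshold of 0.10, the interquartile range as a covariate, the block, and leaving out arrays. The number of arrays limits the precision. The fits were tested on simulated data.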

Additional observations from a re-analysis of the deposited data

Results flagged for a closer look

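Of 60 sets of arrays (10 genes in 6 groups), 4 held an array set off from its group by more than Dixon's 95% criterion, and chance alone gives about 1 in 20. In DG they were Il16 in early array 1 (7.40, against a group median of 8.07), Dsp in lifetime array 10 (10.75, against 11.46) and Pdzd2 in early array 3 (7.80, against 7.67). In NAcc it was Pdzd2 in early array 5 (8.28, against 7.49), the array with the narrowest spread of all features. Without early array 1 the early comparison called 6 members, and without lifetime array 10 the lifetime comparison called 6, against 5 and 5 with all arrays. DG minus NAcc within animals of Prdm8 differed between lifetime and control by +1.31 log2 units (SE 0.29, adjusted p = 0.0396 in limma), with NAcc values too low to be tested alone. The call was lost without the filter on low values (0.0728), with quantile normalization (0.177), with a 60th percentile filter (0.0547) and without any 1 of 11 animals. The part of array quality in these values was not tested.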

How the results depend on the processing

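Of 471 alternative values for single genes other than leaving out 1 array, 423 kept direction and side of the threshold. With the interquartile range as a covariate, 0 members were called in early and 0 in lifetime DG relative to control, and with the difference of it, 4 in the lifetime difference between regions. The replicate block (animal as a random block over both regions) gave 3 early calls, 5 lifetime calls and 2 for lifetime minus early; without the block the lifetime difference between regions gave 2. That difference gave 3 at an adjusted p of 0.10, 0 with no filter, a 60th percentile filter or quantile normalization, 4 with array weights, and 4 without NAcc early array 5 and lifetime array 8. Array weights gave 3 for its early and 1 for its lifetime minus early form, and no filter gave 1 for lifetime minus early in DG. Leaving out 1 array gave 0 to 7 early, 4 to 6 lifetime and 0 to 4 lifetime minus early calls, and 0 to 4 for the lifetime difference between regions; the other 9 counts did not move. Some signs turned, of values that had not passed the test apart from Pdzd2 between regions, which was +0.22 on the deposited scale. The interquartile range as a covariate gave -0.028 (Pdzd2) and -0.023 (Lct) in early and -0.14 (Lct) in lifetime DG, and further quantile normalization -0.0088 (Lct, lifetime). Array weights gave +0.035 for Neurod2 in lifetime minus early DG and +0.058 for Bhlhe22 in lifetime NAcc. Leaving out 1 array gave a range of -0.0046 to 0.059 for Pdzd2 in early DG, of -0.18 to 0.016 for Dsp and -0.047 to 0.17 for Lct in lifetime DG, and of -0.067 to 0.037 for Neurod1 and -0.064 to 0.097 for Neurod2 in lifetime minus early DG. For Il16 in lifetime minus early DG the range was -0.017 to 0.21. Signals of 6 members near the low end in NAcc limit what could be tested there. The cause of these shifts was not tested.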
